A study of Arabidopsis thaliana with 6 samples.

Results

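AT3G61160 encodes a GSK3/shaggy kinase of Arabidopsis thaliana. It was chosen by its MAS5 signals in these same arrays, where it was much lower in both atyak1 mutants than in the wild type, so its levels by genotype are given as a description, without a test. The platform's probe table lists 1 probe set for it, 251358_at, of 22746 probe sets without controls. That table pairs 13513 of the probe sets with a single gene, 13350 genes in all. The tissue was floral buds of mixed age, none past stage 13, cut from the main inflorescence of Col-0 plants at 42 days, with days of 12 hours light and 12 hours dark. The groups were the mutant line atyak1-1, the mutant line atyak1-2 and the wild type, with 2 biological replicates each on 1 Affymetrix ATH1 array per replicate. Each line is mutant for AtYAK1, a DYRK-type kinase whose role in pollen development was the subject of the study. The labels do not say how each allele alters the gene or how many plants stand behind a replicate, so p-values measure the spread between these samples.

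GSK3/shaggy kinases are serine/threonine kinases present in all plants and animals. In Arabidopsis they form a small family. Its best known member, BIN2, phosphorylates the transcription factors BZR1 and BES1 and so holds back the response to brassinosteroids, growth hormones that also act in the anther. The hormone is perceived at the cell surface by BRI1 and its relatives, and perception leads to inactivation of the kinase. Other family members are known from stomatal development, flower development and the response to salt. The RefSeq annotation of assembly TAIR10.1 places AT3G61160 on chromosome 3 as a protein-coding gene with 6 transcripts, which a single probe set does not resolve.

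AT3G61160 had signals of 136 and 90.3 on the atyak1-1 arrays of replicate 1 and 2. The atyak1-2 arrays gave 173 and 106. The wild-type arrays gave 1488 and 1119. All 4 mutant arrays thus lay below both wild-type arrays, and the lowest wild-type signal was 6.45 times the highest mutant signal. The means were 113 ± 32 in atyak1-1, 140 ± 48 in atyak1-2 and 1303 ± 261 in the wild type (SD, n = 2 each). Signals are in the arbitrary units of MAS5, a linear scale. As whole buds were pooled, fewer cells that carry the transcript and less transcript per cell cannot be told apart.

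**Figure D1:**
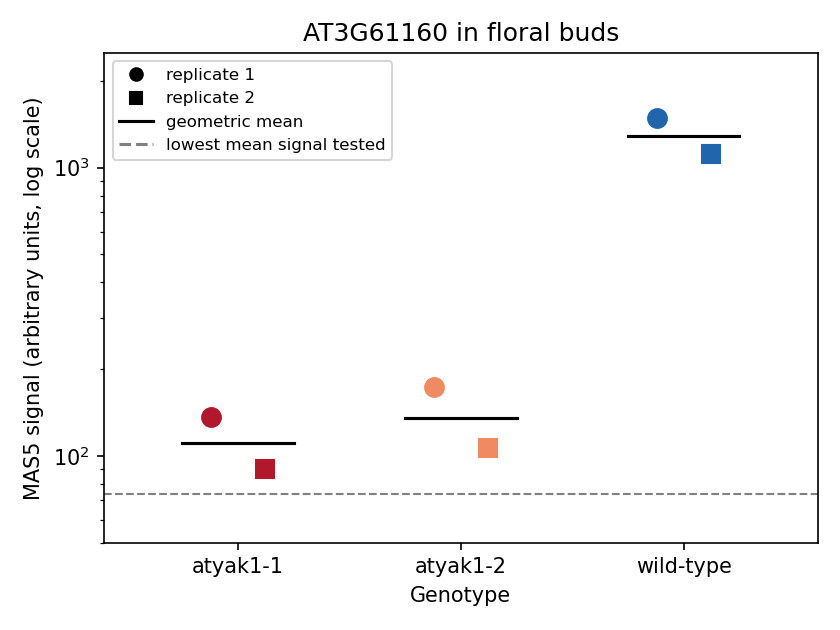
MAS5 signal of AT3G61160 (log axis) on the 6 arrays by genotype, with circles for replicate 1, squares for replicate 2, black bars for the geometric mean of the 2 arrays and a dashed line at the lowest mean signal of a tested probe set. The 4 mutant arrays lie between 90.3 and 173, and the wild-type arrays at 1488 and 1119.

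On the log2 scale AT3G61160 differed by -3.40 ± 0.27 between the mean of both alleles and the wild type (SE from the limma fit, 4 mutant and 2 wild-type arrays), which is a signal 10.5-fold lower. The mutant geometric mean amounted to 9.50% of that in the wild type. For atyak1-1 the difference was -3.54 ± 0.31, or 11.6-fold lower. For atyak1-2 it was -3.25 ± 0.31, or 9.51-fold lower. These 2 values share the wild-type arrays. Ordered by the difference of both alleles from the wild type, AT3G61160 stood 81st from the lowest among the 15164 probe sets tested, whose median difference was 0.09. Every mutant array was below both wild-type arrays in 11.1% of the probe sets tested, a share from which nothing is read for a gene chosen for this pattern.

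All 4 mutant signals of AT3G61160 were above 73.6, the lowest geometric mean signal of a probe set that was tested. MAS5 also returns positive signals where there is no more than background, and detection calls were not used, so the mutant signals are not shown to come from the transcript. With 32 added to each signal before the logarithm, which damps dim values, the difference was -3.09 ± 0.23. No setting moved the difference of both alleles from the wild type by as much as the SD between replicates, and it lay between -3.60 and -3.07 over 15 of them. The other filters, the variance trend and the replicate block cannot change this difference. The gene was also chosen for it, so nothing is read from its steadiness.

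The alleles were compared with each other by a test, though the gene was chosen for low signals in both of them. Such a choice favours genes whose alleles are alike, so a small difference is in part preset. AT3G61160 had geometric means of 136 in atyak1-2 and 111 in atyak1-1. The log2 difference was 0.29 ± 0.31 (SE), with a 95% interval from -0.45 to 1.04 (limma, adjusted p = 0.9998, unadjusted p = 0.386). The interval runs from a lower level in atyak1-2 to a level about as far above that in atyak1-1 as 1 log2 unit. In fits without a replicate block the difference was -0.01 without atyak1-1 replicate 2 and -0.06 without atyak1-2 replicate 1. Within replicates 1 and 2 atyak1-2 lay above atyak1-1, by 0.35 and 0.23. Across the array, 0 of 15164 probe sets (0%) passed in limma for this contrast, and 151 had an unadjusted p under 0.05. With the replicate number as a block, 2 passed, and AT3G61160 was not among them (adjusted p = 0.9998).

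The 2 replicates gave like differences. Within replicate 1, AT3G61160 was lower by a log2 difference of -3.45 in atyak1-1 and -3.10 in atyak1-2, each against the wild-type array of the same number. Within replicate 2 the differences were -3.63 and -3.40. In both replicates atyak1-2 lay above atyak1-1, by 0.35 in replicate 1 and by 0.23 in replicate 2.

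The array of replicate 1 had the higher AT3G61160 signal in all 3 genotypes. The ratio of replicate 1 to replicate 2 was 1.51 in atyak1-1, 1.63 in atyak1-2 and 1.33 in the wild type. Of all probe sets tested, 20.8% had replicate 1 above replicate 2 in every genotype, and 20.8% had it below in every genotype. The SD of AT3G61160 within genotypes was 0.41 on the log2 scale, against a median of 0.19 over all probe sets tested, and 88.8% of them had a smaller one. With the replicate number as a block the SE of its difference from the wild type was 0.15, against 0.27 without the block.

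The genes with the profile most like AT3G61160 were found by the root mean square difference between log2 signals over the 6 arrays, each profile centred on its own mean, among 8305 named probe sets. The measure takes in both the shape and the size of a change, and the arrays, their scaling and the genotype contrast are shared by all genes, so likeness is given as a description. The nearest was AT2G26850, an F-box protein gene, with a root mean square difference of 0.12. It had signals of 45.9 and 28.9 in atyak1-1 and of 54.7 and 30.8 in atyak1-2, against 573 and 365 in the wild type. Here too the mutant arrays lay below the wild-type arrays, and replicate 1 lay above replicate 2 in each genotype. Its log2 difference of both alleles from the wild type was -3.56.

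AT5G50830 followed with a root mean square difference of 0.15, and AT2G23900, a gene of the pectin lyase-like family, with 0.18. AT4G39110, the receptor kinase gene known as BUPS1 that maintains the integrity of the growing pollen tube, had 0.26. The expansin gene EXPB5, whose protein class loosens cell walls, had 0.33. AT3G19310, AT4G25780, AT4G24380, AT2G27180 and the pectin methylesterase gene AT2G26450 completed the 10, with values up to 0.37. Their log2 differences of both alleles from the wild type lay between -4.04 and -2.80, and with 32 added to each signal between -3.84 and -2.34.

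Of these 10 genes, 9 had replicate 1 above replicate 2 in all genotypes, as AT3G61160 did, against 20.8% of all probe sets tested. The exception was AT4G24380, with 3295 and 3597 on the wild-type arrays. The genes were picked for a like profile over these same arrays, so nothing is read from this count. In 8 of the 10 at least 1 mutant signal was below 73.6, so their profiles rest in part on dim values. In AT2G26850, AT4G39110, EXPB5 and AT3G19310 all mutant signals were below it. In AT5G50830, AT2G23900 and AT2G26450 the highest mutant signals were 79.9, 94.2 and 75.3, and their other mutant signals were below 73.6. All of these genes reached the filter only through the wild type. Without the limit to named genes, 38 of 15163 probe sets lay within a root mean square difference of 0.5 of AT3G61160.

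**Figure D2:**
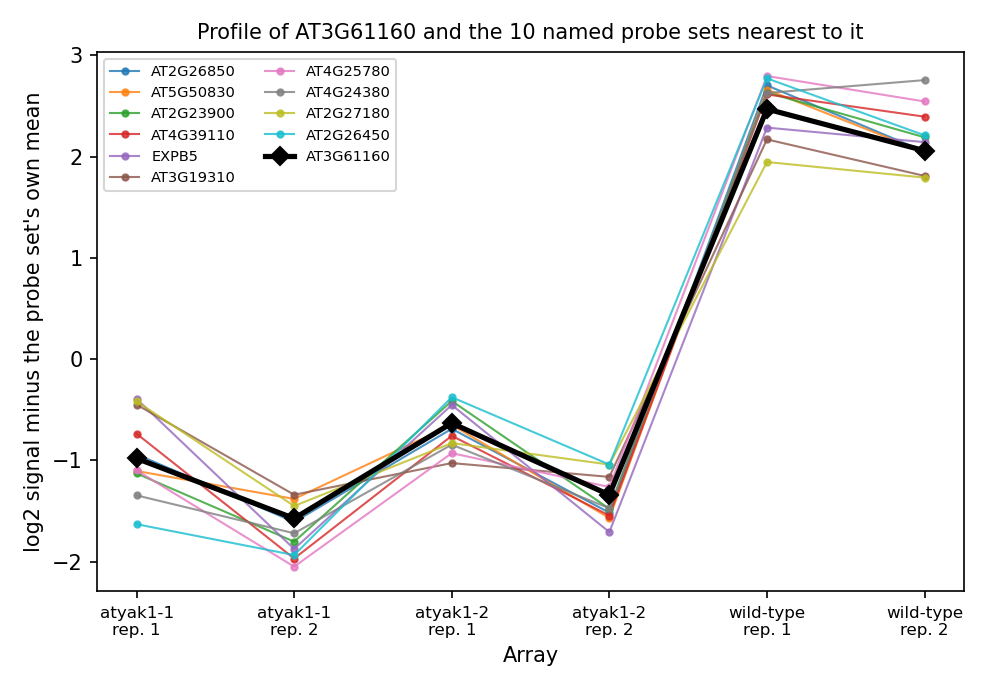
Log2 signal minus each probe set's own mean over the 6 arrays, for AT3G61160 (thick black line) and the 10 named probe sets with the smallest root mean square difference from it (0.12 to 0.37). All 11 lines are low on the 4 mutant arrays and high on both wild-type arrays, and AT4G24380 is the one line that is higher on the wild-type array of replicate 2 than of replicate 1.

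The Pearson correlation over the 6 arrays, which ignores the size of a change, shared 6 of its 10 highest named genes with that list. The other 4 were SWEET9, AT3G28270, AT3G21570 and GH9A4. SWEET9, a sugar transporter needed for nectar secretion, had a correlation of 0.997 with AT3G61160 and a log2 difference of -5.92 between both alleles and the wild type. Its 4 mutant signals lay between 15.4 and 35.5, and with 32 added to each signal the difference was -4.76. AT3G28270 had a correlation of 0.996 and a difference of -1.11. A correlation above 0.95 was reached by 271 of 15163 probe sets, so over 6 arrays in 3 genotypes a high value was not particular to the genes named here.

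The genes around AT3G61160 on the chromosome had small differences between the genotypes. In the gene order of TAIR10.1, the 5 nearest protein-coding genes with a named probe set on each side reached 21 genes before it and 12 after it. Of these 10, 8 were tested and 0 passed in limma, where 1.93% of all probe sets passed. An unadjusted p under 0.05 was found for 2 of the 8, and for 17% of all probe sets, so this count is near the background. Their log2 differences of both alleles from the wild type lay between -0.26 and 0.64, with 6 of 8 above 0, as were 64.5% of all probe sets. The signs of AT3G61080, AT3G61180 and AT3G61210 changed when single arrays were left out, and that of AT3G61210 (-0.06 ± 0.53) also under quantile normalization (0.04). AT3G61180, 5 genes away, had 704 and 539 in atyak1-1 and 625 and 597 in atyak1-2, against 636 and 556 in the wild type. These groups overlapped, and the difference was 0.04 ± 0.15, whose sign changed when atyak1-1 replicate 1 (-0.05) or wild-type replicate 2 (-0.05) was left out. The gene next to AT3G61160 in the order, AT3G61170, was too dim to be tested, with signals of 68.0 and 37.7 in atyak1-1, 80.5 and 41.6 in atyak1-2 and 37.5 and 78.3 in the wild type.

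The 2 neighbours with the smallest unadjusted p are given for their values. AT3G61100 had 916 and 827 in atyak1-1 and 1096 and 843 in atyak1-2, against 634 and 540 in the wild type. Every mutant array was above both wild-type arrays. The difference was 0.64 ± 0.16 (limma, adjusted p = 0.11), and with the replicate number as a block it passed (adjusted p = 0.013), as did 7.59% of all probe sets. AT3G61240 had a difference of 0.46 ± 0.16 (limma, adjusted p = 0.23).

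**Figure D3:**
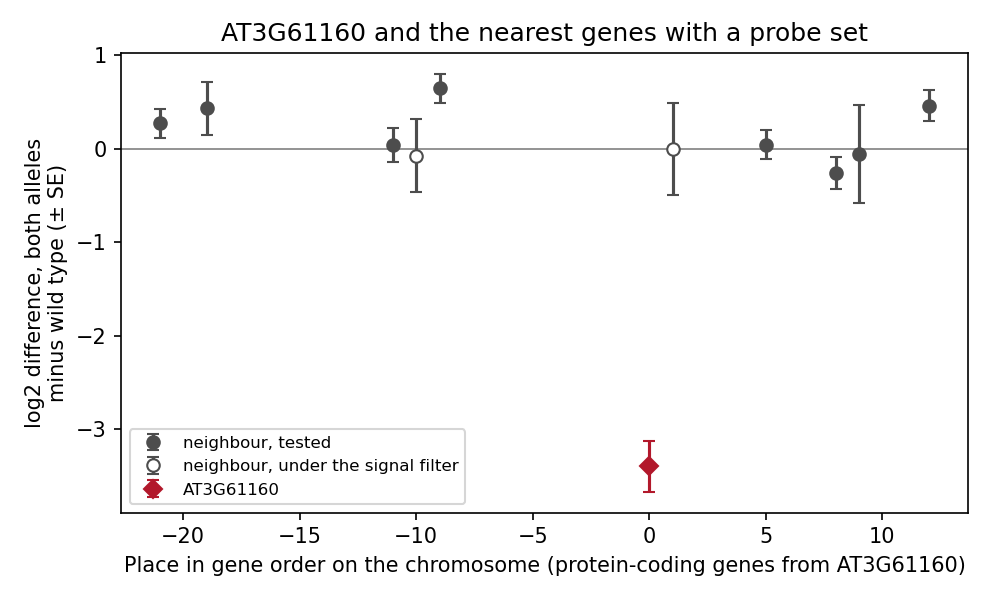
Log2 difference of both alleles minus the wild type (± SE) against place in the gene order around AT3G61160 (red diamond, at 0), with filled circles for tested neighbours and open circles for neighbours under the signal filter. AT3G61160 lies at -3.40 and the tested neighbours between -0.26 and 0.64.

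The pathway in which GSK3/shaggy kinases are best known was thinly covered. Of the 10 genes of the kinase family, AT3G61160 was the only one with a probe set in the table used for naming, and the other 9 were not analysed here. Whether its relatives differed between the genotypes was therefore not tested. Of 57 genes of brassinosteroid perception, signalling, synthesis and response, the table names a probe set for 7, of which 6 were tested. In the comparison of both alleles with the wild type, 1 of the 6 passed higher and 0 lower, against 0.284% higher and 1.64% lower over all probe sets tested. Their median log2 difference was 0.11, beside 0.09 over all. With the replicate block 2 of the 6 passed, where 7.59% of all probe sets did. The lists were drawn up with earlier results of these data known, so these counts are given as a description.

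Upstream of the kinases, the brassinosteroid receptor gene BRL1 was the one listed gene that the table used for naming pairs with a probe set, and it was too dim to be tested, with signals between 21.2 and 50.8 over the 6 arrays. In hormone metabolism, BAT1, an acyltransferase that acts on brassinosteroids, had 374 and 413 in atyak1-1 and 333 and 374 in atyak1-2, against 153 and 145 in the wild type. Every mutant array was above both wild-type arrays, and BAT1 rose by 1.32 ± 0.14 on the log2 scale (limma, adjusted p = 0.0097). The call ended without atyak1-2 replicate 2 (adjusted p = 0.060), wild-type replicate 1 (0.10) or wild-type replicate 2 (0.13).

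Among the listed substrates, binding partners and downstream factors of the kinases, 0 of 4 tested genes passed. Of all probe sets 1.93% passed, so 0 of 4 is near the background. SPCH, a stomatal lineage factor that GSK3/shaggy kinases phosphorylate, had 0.40 ± 0.20 (limma, adjusted p = 0.36). OPS, a membrane protein of phloem that binds BIN2, had 0.24 ± 0.27. CES, a bHLH factor of brassinosteroid responses, had -0.31 ± 0.29. BIM1, a partner of BES1, had -0.02 ± 0.14, with a sign that changed when arrays were left out. EXPA8, a cell wall expansin gene that responds to brassinosteroids, had 511 and 135 in atyak1-1 and 409 and 302 in atyak1-2, against 894 and 1347 in the wild type. Its groups did not overlap, but the atyak1-1 arrays were far apart, and the difference of -1.85 ± 0.50 did not pass (limma, adjusted p = 0.14). It passed with the replicate block (adjusted p = 0.029), without atyak1-1 replicate 1 (0.0026) and without atyak1-1 replicate 2 (0.035).

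Many of the pollen markers were lower in the mutants. Of 47 genes of late pollen and the pollen tube, 14 had a named probe set. The summed signal of the 14 probe sets was 1329 to 1931 in atyak1-1 and 1436 to 1716 in atyak1-2, against 6331 to 7508 in the wild type. No marker was at 0, and the lowest single signal was 2.77. With no signal filter all 14 entered the fit, and 6 passed in the comparison of both alleles with the wild type, all of them lower, where 1.68% of all probe sets passed lower. They were PLIM2a, PLIM2b, AT4G39110, ACT12, AtVEX1 and ANX2, the last of which was under the signal filter. The median log2 difference of the 14 was -1.81, beside 0.09 over all probe sets. This list, like the others, was drawn up with earlier results of these data known. Its counts are therefore a description and not independent support. The part of pollen content in the lower level of AT3G61160 was not tested.

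Under the signal filter 10 of the 14 were tested and 6 passed, all of them lower (1.64% of all), and with the replicate block 7 passed (4.79% of all). In atyak1-1 against the wild type 3 of the 10 passed, where 1.06% of all did, and in atyak1-2 against the wild type 4 passed, where 0.963% of all did. In 4 of the 10, PLIM2a, AT4G39110, AGL66 and AGL30, the geometric mean of the mutant arrays lay under 73.6, so these reached the filter through the wild type, and the counts under the filter support nothing for the list. Of the genes given next, AGL66, AGL30, ACT11 and AGL65 were added with their values in view.

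PLIM2a, an actin-bundling protein of pollen, had 26.3 and 26.6 in atyak1-1 and 58.9 and 26.8 in atyak1-2, against 1409 and 1267 in the wild type. It fell by 5.36 ± 0.33 on the log2 scale (limma, adjusted p = 0.0014), and with 32 added to each signal the difference was -4.39. BUPS1, AT4G39110, had 44.9 and 19.1 in atyak1-1 and 44.2 and 25.6 in atyak1-2, against 458 and 393 in the wild type. It fell by 3.76 ± 0.42 (limma, adjusted p = 0.011), or -2.82 with 32 added. In both genes all mutant signals were dim, so the size of the difference depends on how dim values are treated.

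AtVEX1, a sugar transporter of the pollen vegetative cell, fell by 4.44 ± 0.80 (limma, adjusted p = 0.049), with -5.23 without atyak1-1 replicate 1 and -3.66 without atyak1-1 replicate 2. PLIM2b, the actin gene ACT12 and the MADS-box gene AGL104 also fell, with log2 differences of -1.76, -1.58 and -1.56. Of the tested markers that did not pass, the MADS-box genes AGL66, AGL30 and AGL65 had -1.87 ± 0.43, -0.63 ± 0.28 and -0.06 ± 0.26, and the actin gene ACT11 had -0.40 ± 0.13. AGL65 was the one tested marker whose mutant and wild-type arrays overlapped, and its sign changed under quantile normalization (0.02) and when single arrays were left out. AGL66 passed with the replicate block (limma, adjusted p = 0.023) and without atyak1-1 replicate 1 (0.039).

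The calls of the 6 pollen markers that passed rested on few arrays. Without wild-type replicate 1 or without wild-type replicate 2, none of them passed. Without either atyak1-2 replicate, AtVEX1, PLIM2b, ACT12 and AGL104 did not pass, and AT4G39110 did not pass without atyak1-2 replicate 2 (limma, adjusted p = 0.0505). AGL104 also missed the threshold without atyak1-1 replicate 2 (0.060) and without both mutant arrays of replicate 2 (0.058).

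On the wild-type arrays AT3G61160 was higher in replicate 1 than in replicate 2, as were 5 of the 14 pollen probe sets and 51% of all probe sets tested. With 1 array per genotype and replicate, this order has no error estimate.

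The 1 sperm cell marker with a named probe set, MGH3, was under the signal filter, with 64.7 and 46.9 in atyak1-1 and 21.4 and 39.3 in atyak1-2, against 158 and 276 in the wild type. With no filter MGH3 had a log2 difference of -2.39 ± 0.41 and passed lower (limma, adjusted p = 0.038), as did 1.68% of all probe sets. Markers of the tapetum, the anther layer that feeds the pollen, and of pollen wall synthesis gave 0 passing of 4 tested, where 1.93% of all probe sets passed, so 0 of 4 is near the background. Their summed signal was 6253 to 10191 in atyak1-1 and 6372 to 8771 in atyak1-2, against 4583 to 9390 in the wild type, so the groups overlapped. The tapetum regulator AMS had a log2 difference of 0.27 ± 0.29 and the sugar transporter SWEET8 had 0.39 ± 0.28. SHT, an acyltransferase of spermidine conjugates in the tapetum, had 0.22 ± 0.43, and AT5G07230 had 0.14 ± 0.30. Without wild-type replicate 1 all 4 were below 0, at -0.04, -0.14, -0.36 and -0.36. Of 14 genes of floral organ identity the table names a probe set for 0, so the buds were not checked against them.

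**Figure D4:**
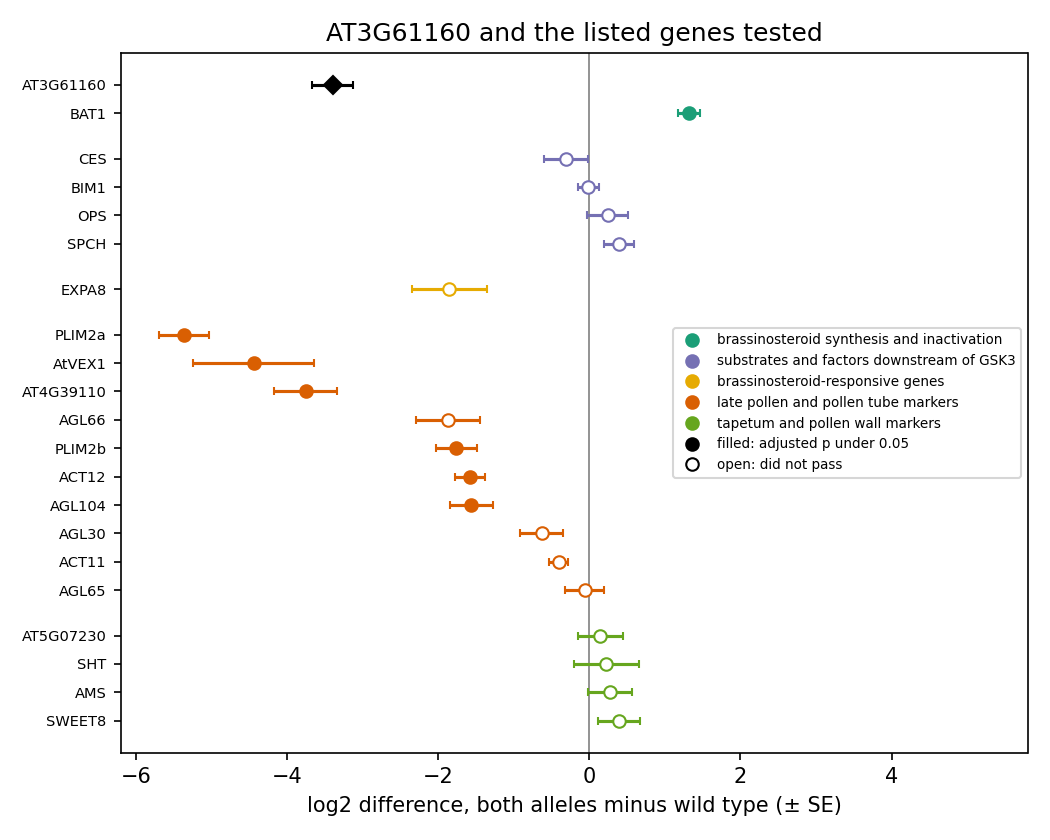
Log2 difference of both alleles minus the wild type (± SE) for AT3G61160 (black diamond, not tested) and the 20 tested genes of the brassinosteroid, pollen and tapetum lists, with filled circles for those that passed. AT3G61160 lies at -3.40, the 6 pollen markers that passed run from -5.36 to -1.56 and the 4 that did not from -1.87 to -0.06, while BAT1 is the one listed gene that passed higher.

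Over the whole array 292 of 15164 probe sets passed in the comparison of both alleles with the wild type, 43 higher and 249 lower. With the replicate number as a block 1151 passed. Leaving out wild-type replicate 1 gave 8, leaving out wild-type replicate 2 gave 7, and leaving out atyak1-2 replicate 1 or 2 gave 100 or 68. Leaving out atyak1-1 replicate 1 gave 590. Median signals per array were between 213 and 223. AtYAK1 itself was not analysed here, so the labels of the mutants rest on the submitters' titles.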

How the data were processed

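The deposited table holds MAS5 signals, linear intensity values of 22810 probe sets on 6 arrays. GCOS and MAS5 are named, per the submitters' processing notes, without versions. The mean after trimming 2% at each end was 500.04 on every array, so the authors had scaled the arrays to a common level, which hides any difference in total signal. The number of arrays limits the precision.

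Signals were taken to log2 without a pseudocount. After removal of 64 control probe sets, the third with the lowest mean was left out, which kept 15164. A model with a mean for each genotype was fitted over the 6 arrays with limma 3.58.1 in R 4.3.3, with a variance trend, 3 residual and 3.84 prior degrees of freedom, Benjamini-Hochberg adjustment over all probe sets tested and a threshold of 0.05. The fit was tested on simulated data. Plots used matplotlib 3.10.9.

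Genes were named through the platform table, of whose single-gene probe sets 13436 matched a RefSeq gene of TAIR10.1. Probe and protein sequences were not used here. AT3G61160 and the gene lists were chosen with earlier results of these data known. Named genes were the family members, those of each list that passed or had the smallest p, the 10 nearest profiles and the nearest neighbours on the chromosome.

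Replicate numbers in the titles were taken to pair the samples, since deviations from the group means correlated at 0.25 for atyak1-1 with the wild type, 0.35 for atyak1-2 with the wild type and 0.61 for the alleles. With 2 replicates this is weak evidence. The main fit has no block. Alternatives were other filters, log2(signal + 32), quantile normalization, median centring, no variance trend, array weights, the replicate block, a fit to only the groups compared and each array left out in turn. A fit without both mutant arrays of replicate 2 was added after the data were seen.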

Additional observations from a re-analysis of the deposited data

How the results depend on the processing

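AT3G61160 kept its direction in atyak1-1, in atyak1-2 and in both alleles against the wild type under every alternative run. For a gene chosen for this gap nothing is read from that. With 1 array left out in turn, the difference of both alleles ranged from -3.60 to -3.19, that of atyak1-1 from -3.84 to -3.24 and that of atyak1-2 from -3.60 to -2.90, and without both mutant arrays of replicate 2 that of both alleles was -3.07. The difference between the alleles ranged from -0.064 to 0.64 with 1 array left out. Its sign changed without atyak1-1 replicate 2 and without atyak1-2 replicate 1. These fits had no replicate block, and within replicates 1 and 2 atyak1-2 lay above atyak1-1, by 0.35 and 0.23. Fitted with the replicate block, AT3G61160 had the same differences with smaller errors.

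The counts of passing probe sets depended on the settings, and the cause was not tested. For both alleles against the wild type, 292 passed, against 445 without the filter, 113 under the stricter filter, 1151 with the replicate block, 478 without both mutant arrays of replicate 2 and 7 to 590 with 1 array left out. For atyak1-1, 160 passed, against 242 without the filter, 56 under the stricter filter, 789 with the replicate block, 81 when only the groups compared were fitted and 2 to 439 with 1 array left out. For atyak1-2, 146 passed, against 50 under the stricter filter, 599 with the replicate block, 359 when only the groups compared were fitted and 0 to 361 with 1 array left out. Between the alleles 0 passed, against 2 with the replicate block and 0 to 6 with 1 array left out.

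Of the listed genes 7 passed for both alleles, against 2 under the stricter filter and 0 to 9 with 1 array left out. For atyak1-1, 4 passed, against 1 under the stricter filter, 9 with the replicate block, 2 when only the groups compared were fitted and 0 to 6 with 1 array left out. For atyak1-2, 5 passed, against 1 under the stricter filter and 0 to 7 with 1 array left out. The stricter filter removed PLIM2a, AT4G39110, ACT12, AGL104, AGL66, AGL30, AGL65, SPCH and OPS from the test. AtVEX1 also missed the threshold under the stricter filter (adjusted p = 0.067) and without the variance trend (0.077), and AGL104 without the filter (0.056).

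Among the named genes and other tested list members, no gene that passed for both alleles changed sign, while 10 of those that did not pass changed sign under at least 1 alternative. With 1 array left out, AMS ranged from -0.044 to 0.59, SWEET8 from -0.14 to 0.92, SHT from -0.36 to 0.81, AT5G07230 from -0.36 to 0.65, BIM1 from -0.096 to 0.065, AGL65 from -0.31 to 0.18, and the neighbours AT3G61080 from -0.081 to 0.17, AT3G61180 from -0.052 to 0.14 and AT3G61210 from -0.53 to 0.41. Without both mutant arrays of replicate 2, AMS had -0.046, SHT -0.25, AT5G07230 -0.077, BIM1 0.058, CES 0.065, AGL65 0.020 and AT3G61210 0.59. Under quantile normalization AT3G61210 had 0.035 and AGL65 0.017.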
